A study of Drosophila melanogaster with 22 samples.

Results

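The transcripts described here are models that the authors' transcript tables mark as alternative ends of known genes of Drosophila melanogaster (AltEnd in their names). They were chosen by their measured counts: a transcript was kept when it had at least 10 estimated counts summed over the 17 nanopore libraries. Of 679 such models in the tables, 668 had a nanopore count and 657 were kept, among 35933 transcripts in all. The 657 transcripts came from 551 genes, which all matched a gene of the BDGP6.54 annotation. Just inside the threshold stood LpR2 AltEnd-3 with 10.05 counts, Mtmr6 AltEnd-1 with 10.5 and CG17030 AltEnd-1 with 11. Just outside it stood Galphao AltEnd-1 with 8.9 counts, blp AltEnd-2 with 8.25 and CG33493 AltEnd-1 with 7.16. Which end of each model differs from the annotation is not given in the sources used here, and no sequence is printed.

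The end of an RNA is set where transcription begins and where the nascent RNA is cleaved and given its poly(A) tail. Many fly genes use more than one such site, so that 1 gene gives RNAs of different length, often with the same coding region and a different untranslated region. A long nanopore read can cover a whole RNA molecule, while short Illumina reads are assigned to transcript models by a statistical estimate.

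The libraries were made from larvae of the OreR strain, and all groups share that background. Infested larvae had been attacked by wasps, which lay eggs in the larva, and normal larvae had not; the wasp species is not named in the labels. Circulating blood is made of hemocytes, which in larvae are phagocytic plasmatocytes, crystal cells that carry melanisation enzymes, and, after wasp attack, flat lamellocytes that wrap the wasp egg. The lymph gland is the larval organ in which blood cells form. Lymph gland at 96 h after egg laying gave 3 infested (24 h after infestation) and 3 normal nanopore cDNA libraries. Blood of 96 h larvae gave 3 infested (24 h) and 2 normal ones, blood of 120 h larvae gave 3 infested (48 h) and 2 normal ones, and normal lymph gland of 120 h gave 1. This last one was made with the kit SQK-PCS109 and the other 16 with SQK-PCB109, so its age and its kit cannot be told apart, and it entered no test. Illumina libraries, 1 per group, covered infested lymph gland of 96 h (a published dataset, per the labels) and infested and normal blood of both ages. Per the labels, hemocytes were shaken out of 100 to 150 larvae per condition and 10 larvae were dissected per replicate, so every library is a pool of animals. The labels do not say whether replicates are separate cohorts, so a p-value here measures the spread between these libraries.

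Transcript counts per nanopore library ran between 297590 in infested lymph gland replicate 2 and 1787141 in normal blood at 120 h replicate 2, and reached 5545877 in the 120 h lymph gland. Illumina libraries held between 14750855 and 24307061 expected counts. Blood cell markers fitted the labelled tissues: the summed level of 5 detected prohemocyte genes was 179.6 to 332 CPM (counts scaled to a common library total) in the blood libraries, against 1130 to 3090 CPM in the lymph gland libraries, and plasmatocyte genes were counted in all of them. Within groups, no pair of the nanopore libraries was alike within sampling noise.

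In most genes the alternative end was not a rare form. The share of a transcript is its count as a percent of all transcript counts of its gene. Pooled over the 17 libraries, the median share of the 657 transcripts was 35.4%, with quartiles at 17.7% and 58.8% and a range between 0.548% and 100.0%. There were 564 transcripts (85.8%) over 10% of their gene, 214 (32.6%) over 50% and 59 (8.98%) over 90%. The median transcript had 233.5 counts in all libraries together, and 277 of the 657 were counted in all 17 libraries while 56 were counted in 5 or fewer. These counts chose the transcripts, so the totals describe the set and are not tested. The 120 h lymph gland library, made with the other kit, held the most transcript counts (5545877) and weighs most in these pooled sums.

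By length the transcripts were mostly short forms. 363 of the 657 (55.3%) were shorter than every annotated transcript of their gene, 163 (24.8%) lay within the annotated range and 131 (19.9%) were longer than every annotated one. Their median length was 1373 nucleotides, between 198 and 7704. 640 came from protein-coding genes, 15 from genes of non-coding RNA and 2 from pseudogenes, and 202 came from genes with 1 annotated transcript. The annotated gene of 335 transcripts overlapped another gene, on the same strand for 86 and on the other strand for 282, and reads in such overlaps may have been divided between the genes. In 470 genes there was 1 alternative-end transcript, 65 genes had 2 and 16 had more.

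**Figure D1:**
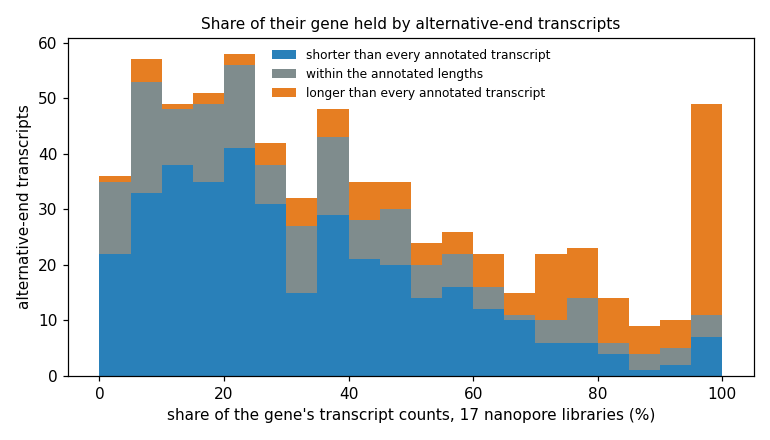
Share of its gene taken by each of the 657 alternative-end transcripts, pooled over 17 nanopore libraries (x axis, percent of the gene's transcript counts), with the number of transcripts on the y axis, stacked and coloured by length against the annotated transcripts of the gene. Short forms are the most numerous (363), and the forms longer than every annotated transcript (131) make up most of the rightmost bar.

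Together the alternative-end transcripts took 3.91 to 5.49% of all transcript counts in the 16 SQK-PCB109 libraries and 3.97% in the 120 h lymph gland. In blood at 120 h their summed share was 5.19% ± 0.378 (SD, n = 3) in infested larvae and 4.03% ± 0.164 (n = 2) in normal larvae. In blood at 96 h it was 4.63% ± 0.149 (n = 3) in infested and 4.33% ± 0.198 (n = 2) in normal larvae, and in lymph gland it was 4.65% ± 0.178 and 4.36% ± 0.166 (n = 3 each). Without the transcripts of CG14610 and cib it was 4.30% ± 0.233 in infested and 3.88% ± 0.163 in normal blood at 120 h. At 96 h it was then 4.31% in infested and 4.28% in normal blood, and 4.496% in infested and 4.31% in normal lymph gland. Of the counts of their own genes they held between 41.9 and 49.9% in every nanopore library. A few transcripts carried much of this, since the 10 most counted held 44.5% of the counts of all 657.

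Ribosomal protein genes gave 6 of those 10. The transcript of sta, which encodes ribosomal protein SA of the small subunit, had the most counts (82013). It is 965 nucleotides long, shorter than the 4 annotated transcripts of 1035 to 1109, from a gene at X:1481797-1483413 on the minus strand (BDGP6.54), which also contains small nucleolar RNA genes on the same strand. Its share was 78.4, 83.8 and 79.6% in infested and 84.7 and 80.0% in normal blood at 120 h. In blood at 96 h it was 78.9, 82.5 and 80.1% in infested and 83.0 and 78.9% in normal larvae. In lymph gland at 96 h it was 81.8, 84.1 and 81.5% in infested and 82.1, 83.1 and 77.1% in normal larvae, and the 120 h lymph gland was lowest at 71.2%. The infested and normal libraries overlapped in all 3 settings.

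The RpS15 transcript, for another small-subunit protein, stayed just above the middle of its gene's counts. Its share was 55.5, 56.3 and 54.0% in infested and 57.1 and 55.0% in normal blood at 120 h, and all 17 libraries fell between 52.3 and 61.7%. RpS27 had 2 alternative ends of 464 and 363 nucleotides, both shorter than the annotated 687 and 729. In infested blood at 96 h the longer of them took 45.1, 40.6 and 40.6% and the shorter 37.7, 37.3 and 33.3%, against 29.5 and 37.3% and 27.7 and 32.4% in normal blood. Neither form overlapped between the groups, but the adjusted p of the share test was 1 for both. The lowest values stood in normal replicate 2, where 3253 transcript counts stood beside 3268 gene-table counts, against 2348 beside 2913 in infested replicate 1. RpL17 AltEnd-2, for a large-subunit protein, had shares between 44.3 and 59.9% over the 17 libraries.

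RpL24, also of the large subunit, split into 2 sets of libraries that crossed the groups. Its share was 57.1% in 1 infested library of blood at 120 h and 42.4 and 39.1% in the other 2, and it was 43.4 and 55.9% in the normal libraries of that age. In lymph gland it was 57.2, 61.1 and 42.9% in infested and 45.1, 62.4 and 54.4% in normal larvae. The low values stood in libraries where nearly all reads of the gene were counted on transcripts. In infested lymph gland replicate 3, with the share of 42.9%, 5359 transcript counts stood beside 5395 counts in the authors' gene table, while in replicate 1, with 57.2%, 2739 stood beside 3633.

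Outside the ribosome, the largest counts belonged to lncRNA:CR43855, cib, CG14610 and Cyp1. The cib transcript encodes ciboulot, which binds actin monomers, and it took 87.0 to 92.6% of its gene in all 17 libraries. The Cyp1 transcript, for a cyclophilin that helps proteins fold, has 692 nucleotides against the annotated 1227 and took 24.6 to 34.1%. The transcript of the non-coding RNA gene lncRNA:CR43855 took 82.4, 79.0 and 79.7% of its gene in infested and 70.5 and 70.1% in normal blood at 120 h. Both normal libraries were below the other 15 libraries, which lay between 77.0 and 85.7%, but the gene had 183 and 82 transcript counts there and the adjusted p of the share test was 1. This gene lies within the span of Sema1a on the other strand.

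**Figure D2:**
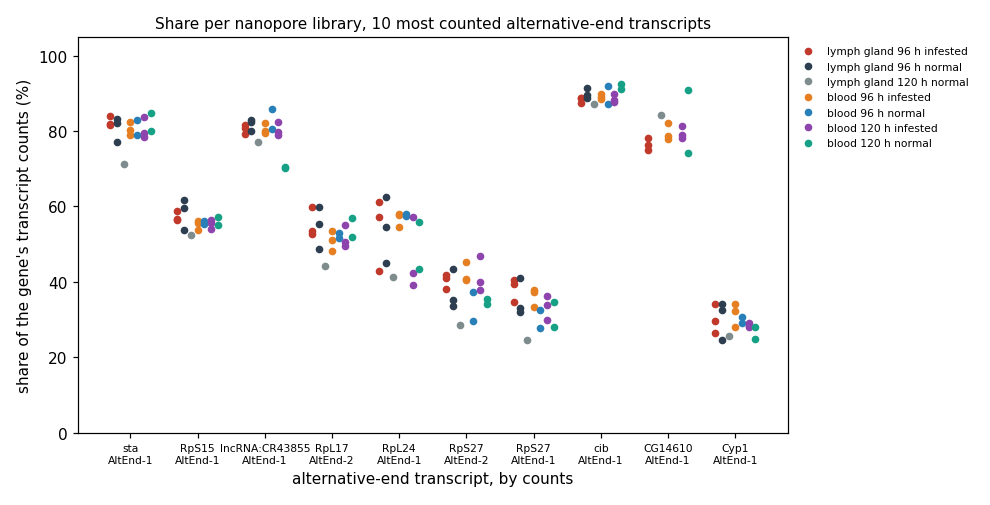
Share of the gene (y axis, percent of the gene's transcript counts) of the 10 alternative-end transcripts with the most counts, 1 point per nanopore library with at least 10 transcript counts of the gene, coloured by tissue, age and infestation (transcripts on the x axis). The cib and sta transcripts lie near the top in every group, and RpL24 spreads within groups between 39.1 and 62.4%.

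Among the transcripts at 100% of their gene, the 6 with the most counts were those of CG8860, mRpL51, Hsdl2, Gapdh1, Rpn7 and CG31548, so every other transcript of these genes was listed at 0. The gene tables gave a different picture. The transcript of CG8860 made up 100% of the transcript counts in the 14 libraries that counted it, yet only 49.6 to 50.1% of the count of the same gene in the authors' gene tables. The Gapdh1 transcript (glyceraldehyde-3-phosphate dehydrogenase, a glycolytic enzyme) was counted in 5 libraries and came to 33.2% of the gene-table count there. In the other 12 libraries this transcript was listed at 0. The Rpn7 transcript, for a subunit of the proteasome lid, was counted in 7 libraries and held 49.1% of the gene-table count. In contrast the transcript of mRpL51, a protein of the mitochondrial ribosome, was counted in all 17 libraries and held 88.4 to 96.0% of the gene-table count in each.

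Missing counts were common. Over the genes of the 657 transcripts, the transcript tables summed to 79.0 to 87.1% of the gene-table counts per library. With the gene-table count as denominator, the median pooled share was 24.98% in place of 35.4%, and 211 transcripts moved by over 10 percentage points. Of 2101 pairs of a transcript and a library in which the gene had at least 200 transcript counts, 142 (6.76%) listed the alternative end at exactly 0, while the smallest share above 0 was 0.505%. Annotated transcripts of any gene were listed at 0 in 13.9% of 21996 such pairs. 7 alternative ends were at 0 in 1 library and at 10% or more in another library of the same group: those of KdelR, ND-ACP (AltEnd-2), ND-B22, Nrg, lncRNA:CR40469, lncRNA:CR44316 and 28SrRNA-Psi:CR40741. Whether a listed 0 in these tables is a failed estimate or an absent RNA was not tested, and shares at 0 are given per library.

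There were 112 alternative ends in genes with at least 50 transcript counts in each of the 16 SQK-PCB109 libraries, and the median SD of their share between libraries of 1 group was 2.81 percentage points. The 6 group means of a transcript spanned a median of 5.97 points, 90 of the 112 stayed within 10 points, and 2 spanned more than 20 (28SrRNA-Psi:CR40741 with 33.8 and ND-13B with 23.5, both listed at 0 in some libraries). Of the 112, 91 were counted in all 16 libraries, a condition that leaves out every transcript listed at 0, and 75 of these stayed within 10 points. The widest of the 91, a description chosen after the values were seen, was Ald1 AltEnd-3 of the glycolytic enzyme aldolase. Its share was 35.8, 36.5 and 26.8% in infested and 22.1, 23.2 and 19.4% in normal lymph gland. In blood at 96 h it was 12.2, 26.0 and 36.2% in infested and 15.4 and 13.1% in normal larvae, and at 120 h it was 25.8, 24.2 and 31.1% in infested and 19.1 and 13.8% in normal larvae. The means were higher in infested larvae in all 3 settings, yet the libraries overlapped in blood at 96 h and no comparison reached an unadjusted p of 0.05.

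Hsp83, the gene of the chaperone Hsp90, had a short alternative end of 827 nucleotides against annotated transcripts of 2713 and 2960. It took 15.2, 9.74 and 9.62% in infested and 26.2 and 21.4% in normal blood at 96 h, with no overlap. In lymph gland it took 6.15, 13.3 and 13.1% in infested and 12.3, 18.3 and 25.4% in normal larvae, and in blood at 120 h 8.25, 11.9 and 13.8% in infested and 13.7 and 18.7% in normal larvae. The means were lower in infested larvae in all 3 settings, the ranges overlapped in the last 2, and the adjusted p was 1 in each. In Illumina the level of this end was 176.2 CPM in infested and 216.3 CPM in normal blood at 96 h. At 120 h it was 80.2 CPM in infested and 0 CPM in normal blood, the other direction, with 1 library per group.

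Some genes had many alternative ends at once. 14-3-3epsilon, which encodes a phosphoserine-binding adaptor protein, had 6 of them within 1460 to 1496 nucleotides, and their pooled shares ran between 2.38 and 14.4%. AltEnd-1, AltEnd-2 and AltEnd-3 were counted in all 17 libraries, AltEnd-6 in 7. The paralogous 14-3-3zeta had 5, of which 3 were counted in all 17 libraries with pooled shares of 7.17, 6.30 and 7.48%. Galphaq, the alpha subunit of a heterotrimeric G protein, also had 6, but with only 664.7 transcript counts for the gene, and AltEnd-3 and AltEnd-4 held 24.4 and 20.9% of them. Rab5, a GTPase of early endosomes, had 4 with pooled shares of 2.98 to 8.28%. Of all alternative ends, 69.4% of the counts above 0 were not whole numbers, against 44.5% for other transcripts.

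Few alternative ends passed the test for a changed share between groups. With 2 or 3 libraries per group, a share that did not pass is not shown to be unchanged. The test compared the change of each transcript with that of its gene (edgeR, quasi-likelihood fit and transcript-level splicing test, Benjamini-Hochberg adjustment over 8309 transcripts, threshold 0.05), and 601 of the 657 could be tested. In infested against normal lymph gland at 96 h 0 alternative ends passed, 15 had an unadjusted p under 0.05, and limma's voom and logit fits called 1 and 2; 0.0602% of all transcripts tested passed. In infested against normal blood at 96 h 1 passed (KdelR AltEnd-1), 20 had an unadjusted p under 0.05, and 0.0241% of all passed. In infested against normal blood at 120 h 2 passed (KdelR AltEnd-1 and ND-ACP AltEnd-2) and 22 had an unadjusted p under 0.05. Of all transcripts 0.168% passed there. In these 3 comparisons 2.5, 3.33 and 3.66% of the tested alternative ends had an unadjusted edgeR p under 0.05. Among all transcripts tested it was 3.74, 2.96 and 3.88%.

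Age and tissue gave few calls as well. Between 120 h and 96 h in infested blood 1 passed (ND-ACP AltEnd-2) beside 22 with an unadjusted p under 0.05, and 0.12% of all transcripts passed. In normal blood 0 passed by edgeR between 120 h and 96 h, 16 had an unadjusted p under 0.05, the voom and logit fits called 3 and 1, and 0% of all passed. Between blood and lymph gland at 96 h, 0 passed by edgeR in infested larvae, 14 had an unadjusted p under 0.05, voom called 0 and the logit fit 1, and 0.0361% of all passed. In normal larvae 0 passed by edgeR for the same contrast, 21 had an unadjusted p under 0.05, the voom and logit fits called 4 and 2, and 0.0481% of all passed. The infestation effect in blood minus that in lymph gland gave 0 by edgeR with 21 under an unadjusted 0.05, voom and logit counts of 1 and 2, and 0.0241% of all. The infestation effect in blood at 120 h minus that at 96 h gave 0 by edgeR with 17 under an unadjusted 0.05. Voom and logit counts were 0 and 1, and 0.0361% of all passed. In the order of this paragraph, 3.66, 2.66, 2.33, 3.49, 3.49 and 2.83% of the tested alternative ends had an unadjusted edgeR p under 0.05. Among all transcripts tested it was 4.59, 3.32, 2.95, 3.38, 3.09 and 3.09%. No share over all transcripts stands beside the voom and logit counts, so no result on alternative ends is read from them.

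KdelR encodes the receptor that returns escaped resident proteins of the endoplasmic reticulum from the Golgi. Its AltEnd-1 has 1014 nucleotides, shorter than the annotated 1201 to 1679, from a gene at 2L:10426887-10428632 on the plus strand. In blood at 96 h it took 14.4, 12.2 and 15.2% of the gene in infested larvae and was listed at 0 in both normal libraries, which had 142 and 272 transcript counts of the gene. In blood at 120 h it took 14.2, 12.6 and 0% in infested larvae and was listed at 0 in both normal libraries, of 489 and 190 counts. In lymph gland at 96 h it took 15.01, 13.7 and 12.5% in infested and 10.97, 0 and 10.98% in normal larvae, and 10.9% in the 120 h lymph gland. The groups did not overlap in blood at 96 h and overlapped at 0 in blood at 120 h.

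The fitted log2 change of the share against the gene was 8.52 ± 1.59 (SE; edgeR adjusted p = 0.01001) at 96 h and 7.78 ± 1.43 (adjusted p = 0.005729) at 120 h, both in infested over normal blood, but a fit against libraries at 0 sets no size. The infestation effect in blood minus that in lymph gland had an adjusted p of 0.3069. In the Illumina libraries the same transcript was present in normal blood, with 39.1% of the gene in infested and 33.2% in normal blood at 96 h, and 40.4% in infested and 15.7% in normal blood at 120 h. The call at 96 h was lost without normal replicate 2 (adjusted p = 0.151) or replicate 3 (0.4337) and in the logit fit (0.3877). That at 120 h was lost without normal replicate 2 (0.4144), with only the groups compared (0.103), in voom (0.1044) and in the logit fit (0.5776). With libraries at 0 treated as missing, a setting added after seeing the data, the KdelR transcript could not be tested in blood, since no normal library was left.

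ND-ACP encodes the mitochondrial acyl carrier protein, which is also a part of respiratory complex I. Its AltEnd-2 has 618 nucleotides, against annotated lengths of 625 to 740, from a gene at 3L:1329949-1331631 on the plus strand. In blood at 120 h it was listed at 0 in all 3 infested libraries, which had 186, 419 and 223 transcript counts of the gene, and took 13.9 and 14.96% in the normal ones. In blood at 96 h it took 9.40, 11.1 and 0% in infested and 16.7 and 12.8% in normal larvae. In lymph gland it took 9.16, 0 and 10.6% in infested and 0, 13.5 and 11.8% in normal larvae. The groups were apart in blood at both ages, and zeros stood in both groups of lymph gland.

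The log2 change of the ND-ACP AltEnd-2 share was -8.32 ± 1.63 (SE; edgeR adjusted p = 0.008053) for infested over normal blood at 120 h, and -7.40 ± 1.67 (adjusted p = 0.03543) for 120 h over 96 h in infested blood. The difference of the infestation effect between the 2 ages had an adjusted p of 0.268. In the Illumina libraries this transcript took 0% of the gene in infested and 0% in normal blood at 120 h, and 4.45% in infested and 0% in normal blood at 96 h. The call at 120 h was lost without infested replicate 2 (adjusted p = 0.1391) and in the logit fit (0.3943). The call between ages was lost without each infested library in turn (adjusted p = 0.1333 to 0.3387) except replicate 3 at 96 h (0.01213). It was also lost in voom (0.1219) and in the logit fit (0.681). With the replicate block the edgeR adjusted p was 0.0734, which is not read because replicate numbers were not shown to pair libraries.

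**Figure D3:**
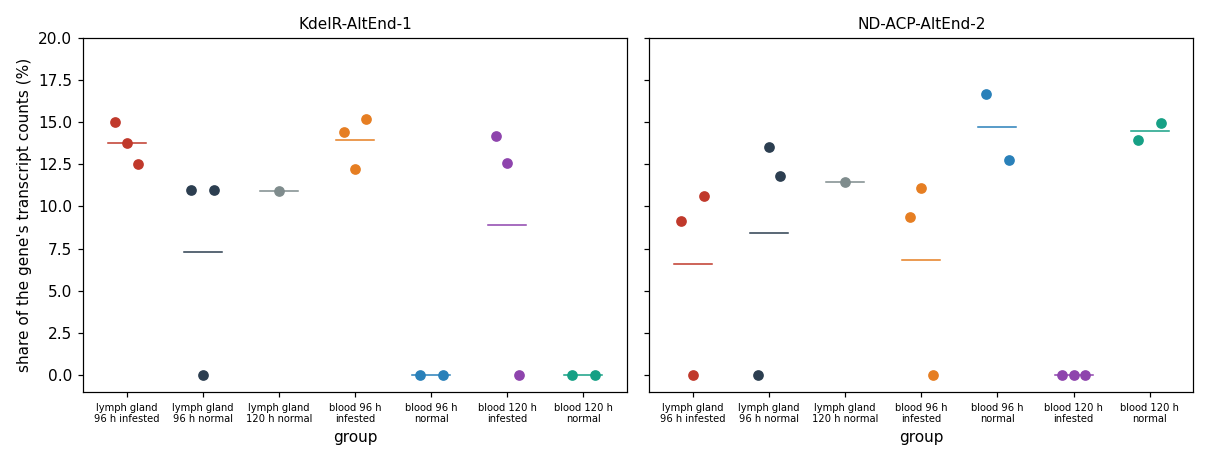
Share of the gene (y axis, percent of the gene's transcript counts) of KdelR AltEnd-1 and ND-ACP AltEnd-2 in each nanopore library, by group (x axis), with lines at the group means. Points at 0 are libraries that list the transcript at 0; the KdelR end is at 0 in all 4 normal blood libraries and ND-ACP AltEnd-2 in all 3 infested libraries of blood at 120 h, and points at 0 also stand in groups whose other libraries lie above 9%.

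More alternative ends passed the level test than the share test. A level is the CPM of a transcript after TMM scaling, tested across 13965 transcripts, 654 of the 657 among them (edgeR quasi-likelihood test, Benjamini-Hochberg adjustment, threshold 0.05). In infested against normal blood at 120 h, 50 alternative ends passed, 40 higher and 10 lower, which is 7.65% of them beside 5.81% of all transcripts. In infested against normal blood at 96 h 9 passed, all higher (1.38% beside 1.48% of all). In infested against normal lymph gland at 96 h 9 passed, 8 higher and 1 lower (1.38% beside 1.57% of all). The median log2 change of the alternative ends was 0.13, 0.21 and 0 in these 3 comparisons, against 0.09, 0.08 and 0 over all transcripts. In total, 52 alternative ends passed in at least 1 comparison. Of the 40 that rose in blood at 120 h, 2 had under 10 counts outside the infested libraries of that group, so the rule took them in through that group. Without normal replicate 2 of each age, 25 passed at 120 h and 3 at 96 h, and 19 passed in lymph gland with a replicate block. No share over all transcripts stands beside the counts of these other settings.

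The summed gene count, which contains the reads of the alternative end, moved the same way in 49 of the 50 called in blood at 120 h and in all 9 of each other comparison. Of 41 with a share in both groups of blood at 120 h, 37 had group mean shares within 10 points of each other. In the Illumina libraries, 1 per group, 39 of the 50 and 9 of the 9 in blood had the same direction. No share over all transcripts stands beside these counts. Some same directions at 120 h rest on a listed 0 in a single library. Cam AltEnd-2 had 287.8 CPM in infested and 0 CPM in normal blood, and scf AltEnd-1 had 0 and 181.5 CPM. In these bulk samples, fewer cells of a type and less RNA per cell cannot be told apart.

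Markers of blood cell types moved with infestation as well. The summed level of 13 lamellocyte genes, all of them counted, was 14554 to 15387 CPM in infested and 498 to 519.7 CPM in normal blood at 120 h, 4509 to 5490 and 352 to 363 CPM in blood at 96 h, and 1857 to 3026 and 276 to 292 CPM in lymph gland. For 8 counted crystal cell genes (the name Jafrac1 matched no counted gene) it was 1130 to 1849 CPM in infested blood at 120 h. In normal blood at 120 h it was 5239 to 5511 CPM. At 96 h it was 2516 to 4917 CPM in infested and 11627 to 11780 CPM in normal blood. In lymph gland it was 378 to 619.7 CPM in infested and 3022 to 4910 CPM in normal larvae. For 12 plasmatocyte genes it was 2803 to 4090 CPM in infested and 6150 to 6202 CPM in normal blood at 120 h, 5157 to 6259 and 7418 to 7841 CPM at 96 h, and 1189 to 1551 and 2251 to 3109 CPM in lymph gland. Genes of other tissues moved too: 10 midgut genes summed to 1491 to 2355 CPM in infested and 125 to 130.4 CPM in normal blood at 96 h, and 20.2 to 31.9 and 312 to 323 CPM at 120 h. In lymph gland the midgut genes summed to 66.8 to 1127 CPM in infested and 0 to 4.00 CPM in normal larvae. Of 8 listed fat body genes 7 were counted (the name Yp1 matched no counted gene). At 120 h these 7 summed to 573 to 4214 CPM in infested and 3168 to 3758 CPM in normal blood. Muscle genes at 120 h summed to 445 to 1319 and 434 to 464 CPM, respectively. Male germline genes at that age summed to 196 to 287 and 58.1 to 60.6 CPM. Fat body genes in blood at 96 h summed to 1469 to 2359 CPM in infested and 407 to 1196 CPM in normal larvae. Muscle genes there summed to 926 to 2700 and 2657 to 3114 CPM. Male germline genes there summed to 0 to 12.9 and 19.4 to 22.9 CPM. In lymph gland at 96 h fat body genes summed to 1104 to 1568 CPM in infested and 944 to 1157 CPM in normal larvae. Muscle genes in lymph gland summed to 468 to 685 and 912 to 1134 CPM. The part of these changes in the results on levels was not tested.

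CG14610, CG10232 and mthl2 passed in all 3 comparisons. The alternative end of CG14610 has 656 nucleotides against the annotated 513, from a gene at 3R:7143729-7144295 on the minus strand that overlaps asRNA:CR42738 on the other strand, and reads of the 2 genes may not have been told apart. It had 2416, 6976 and 7344 CPM in infested and 12.7 and 17.001 CPM in normal blood at 120 h. It had 1497, 1795 and 1719 CPM in infested and 4.46 and 3 CPM in normal blood at 96 h, and 710, 747 and 736 CPM in infested and 0.959, 4.07 and 7.84 CPM in normal lymph gland. The groups were far apart in each, with log2 changes of 8.58 ± 0.65, 8.80 ± 0.71 and 7.41 ± 0.54 (SE; edgeR adjusted p = 2.253e-06, 1.124e-05 and 5.091e-06). Its share of the gene was steady where the gene was counted, at 79.4% ± 1.73 in infested blood at 120 h, 79.5% ± 2.33 in infested blood at 96 h and 76.4% ± 1.53 in infested lymph gland (SD, n = 3 each).

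The mthl2 transcript, for a receptor of the Methuselah family, has 1742 nucleotides against the annotated 2035. It had 158, 245 and 215 CPM in infested and 62.1 and 47.6 CPM in normal blood at 120 h, 178, 185 and 160 CPM in infested and 60.3 and 60.0 CPM in normal blood at 96 h, and 145, 169 and 115.4 CPM in infested and 44.1, 49.9 and 31.4 CPM in normal lymph gland. No infested library fell into the normal range, and the log2 changes were 1.89 ± 0.25, 1.54 ± 0.26 and 1.76 ± 0.22 (SE; edgeR adjusted p = 0.0003427, 0.005413 and 0.0005562). In blood at 96 h the call was lost without normal replicate 2 (adjusted p = 0.084) or replicate 3 (0.07642). Its share stayed between 17.8 and 26.9% in all 17 libraries. The CG10232 transcript made 97.9 to 100% of its gene's transcript counts in infested blood, with 92.1, 104 and 86.4 CPM in infested and 0.634 and 0 CPM in normal blood at 120 h. It had 20.8, 15.8 and 18.7 CPM in infested and 0 and 1.5 CPM in normal blood at 96 h, and in lymph gland 14.5 counts in all infested libraries together against 0 in normal ones. The gene-table level of CG10232 was higher, at 134.8 CPM beside 94.2 CPM for the transcript in infested blood at 120 h. At 96 h it was 29.8 beside 18.4 CPM, each scaled to its own total. With only the groups compared, CG10232 did not pass in lymph gland (adjusted p = 0.2532) or in blood at 96 h (0.05851), and with DESeq2 it did not at 96 h (0.05191).

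The transcripts of cib, AnxB9 and GstD3 rose in blood at both ages. That of cib had 3528, 3400 and 3348 CPM in infested and 1712 and 1532 CPM in normal blood at 120 h, and 1530, 1284 and 1236 CPM in infested and 435 and 437 CPM in normal blood at 96 h. Neither age overlapped, and the log2 changes were 1.08 ± 0.17 and 1.63 ± 0.18 (SE; edgeR adjusted p = 0.001284 and 0.0001476). In the Illumina libraries cib had 1680 CPM in infested and 5664 CPM in normal blood at 120 h, which is the other direction. The transcript of AnxB9, an annexin that binds membranes in the presence of calcium, averaged 269 ± 87.6 CPM in infested (n = 3) and 94.3 ± 1.12 CPM in normal blood (n = 2) at 120 h. The GstD3 transcript, of a glutathione S-transferase, averaged 231 ± 35.6 CPM in infested and 19.4 ± 5.77 CPM in normal blood at 120 h, and 259 ± 62.9 and 94.9 ± 14.3 CPM at 96 h. The 120 h log2 changes were 1.51 ± 0.26 for AnxB9 and 3.52 ± 0.34 for GstD3 (SE; edgeR adjusted p = 0.00218 and 2.016e-05). The GstD3 count is uncertain where reads match its close relatives among the GstD genes. Both transcripts also rose at 96 h, with Chmp1, Orai and lncRNA:CR43855. The Orai end was listed at 0 in both normal libraries of 96 h, where its gene averaged 21.7 CPM, so its rise has no firm size. In Illumina the Orai end had 106 CPM in infested and 29.1 CPM in normal blood at 96 h.

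The following transcripts that rose in infested blood at 120 h were picked after their values were seen, with no list of such genes behind them, so no count or theme is drawn from them. Calmodulin, the general calcium sensor, had 2 alternative ends that rose: Cam AltEnd-1 averaged 1634 ± 675 CPM in infested and 331 ± 54.1 CPM in normal blood, and AltEnd-2 746 ± 34.0 and 106 ± 8.42 CPM. Their log2 changes were 2.30 ± 0.33 and 2.81 ± 0.65 (SE; edgeR adjusted p = 0.0005966 and 0.0177). The store-operated calcium channel Orai averaged 71.6 ± 29.1 CPM in infested and 8.56 ± 12.1 CPM in normal blood, with 1 normal library at 0. Small GTPases among them were Rab1 of transport out of the endoplasmic reticulum, Rab11 of recycling endosomes, Rala of exocytosis and Ras85D of growth signalling. Rab1 averaged 401 ± 99.0 CPM in infested and 159 ± 18.6 CPM in normal blood and Ras85D 71.5 ± 10.8 and 16.5 ± 1.73 CPM. Rab11 averaged 137 ± 10.3 and 65.3 ± 17.9 CPM. The Rab11 end was a minor form, with 8.76% of its gene in infested and 12.1% in normal blood, while the Rab1 end took 64.8 and 58.8%. The ESCRT genes Chmp1 and Vps4, the syntaxin Syx13, the carrier protein Scamp and the clathrin adaptor AP-1sigma were also called, with log2 changes between 0.88 and 1.68. In the Illumina libraries, 1 per group, Syx13 had 112.5 CPM in infested and 153.5 CPM in normal blood at 120 h, Rala 107.9 and 121.2 CPM, and Rab11 1047 and 1094 CPM, the other direction for each.

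All 3 ends of 14-3-3epsilon that were counted in every library rose in infested blood at 120 h. AltEnd-1 averaged 169 ± 21.7 CPM in infested and 74.4 ± 2.99 CPM in normal blood at 120 h, AltEnd-2 404 ± 78.0 and 177 ± 1.61 CPM, and AltEnd-3 169 ± 15.7 and 79.1 ± 3.73 CPM (n = 3 and 2). Their log2 changes were 1.18 ± 0.21, 1.19 ± 0.20 and 1.09 ± 0.16 (SE; edgeR adjusted p = 0.002701, 0.002185 and 0.0005303). Their shares differed by under 1 point between the groups, with 6.24, 14.9 and 6.30% in infested and 6.60, 15.7 and 6.92% in normal blood. In Illumina AltEnd-3 had 39.3 CPM in infested and 69.1 CPM in normal blood at 120 h, the other direction.

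UQCR-Q AltEnd-2 was the 1 called transcript whose gene did not move with it. UQCR-Q encodes a subunit of respiratory complex III, and CG46525 overlaps it on the same strand. This end had 167, 118 and 86.4 CPM in infested blood at 120 h, at 33.8, 34.3 and 31.8% of the gene, and was listed at 0 in the other 14 libraries. The gene itself averaged 530 CPM in infested and 544 CPM in normal blood. This end met the 10-count rule only through infested blood at 120 h, so its tests are not read, although it counts among the 40 that were higher. The share test did not pass it either. The Illumina libraries had 3.06 CPM of it in infested and 8.46 CPM in normal blood at 120 h.

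The 10 transcripts that fell in infested blood at 120 h included those of metabolic enzymes. Miox AltEnd-1 (myo-inositol oxygenase) had 48.7, 78.6 and 66.9 CPM in infested and 371 and 325 CPM in normal blood, with no overlap. Its log2 change was -2.42 ± 0.28 (SE; edgeR adjusted p = 0.0002542). In lymph gland the Miox end had 5.15, 9.04 and 6.79 CPM in infested larvae and was listed at 0 in the normal ones, where 2 of 3 libraries had counts of the gene in the gene table. The aldehyde dehydrogenase Aldh7A1 averaged 14.9 ± 7.60 CPM in infested and 46.6 ± 13.0 CPM in normal blood at 120 h, and CG7860 25.5 ± 3.31 and 81.8 ± 9.86 CPM. CG7860 was also the transcript that fell in lymph gland, with 6.62, 3.01 and 3.39 CPM in infested and 27.8, 19.4 and 17.9 CPM in normal larvae (log2 change -2.16 ± 0.30 SE; edgeR adjusted p = 0.001138). Both ends of vsg fell, AltEnd-1 to 106 ± 10.9 CPM in infested against 253 ± 14.1 CPM in normal blood, as did those of the cochaperone DnaJ-1, the chromatin protein HmgZ, scf, CG31337 and CG2493. Their infested and normal libraries did not overlap. In the Illumina libraries, 1 per group, Miox AltEnd-1 had 0 CPM in both infested and normal blood at 120 h. HmgZ had 42.1 CPM in infested and 26.9 CPM in normal blood there, the other direction. CG31337 (178 and 172.8 CPM) and CG2493 (1.62 and 1.26 CPM) also went the other way. The rest of the transcripts that fell were lower in infested blood in Illumina too. Among these, CG7860 was near the floor (0.386 CPM in infested and 1.98 CPM in normal blood) and scf was listed at 0 in the infested library.

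Of the calls in lymph gland not yet named, 14-3-3epsilon AltEnd-3 averaged 98.6 ± 10.8 CPM in infested and 65.0 ± 3.23 CPM in normal larvae (SD, n = 3 each). Its log2 change was 0.60 ± 0.14 (SE; edgeR adjusted p = 0.04513). CG7953 had 42.7, 45.2 and 4.24 CPM in infested larvae and was listed at 0 in the normal ones, where the gene table was at 0 too. The transcripts of axed and nrv3 averaged 8.30 ± 0.85 and 4.02 ± 3.83 CPM in infested larvae and were listed at 0 in normal larvae, and nrv3 was also at 0 in an infested library.

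**Figure D4:**
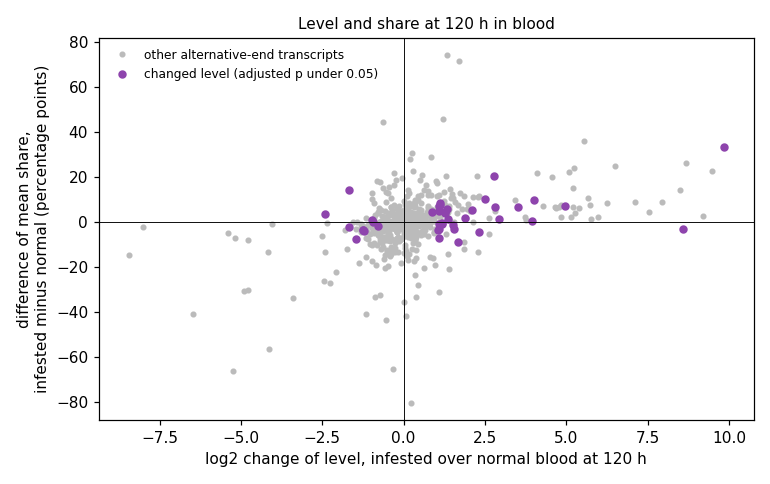
Change in infested over normal blood at 120 h of each alternative-end transcript with a share in both groups: log2 change of its level (x axis) and difference of its group mean share (y axis, percentage points, infested minus normal), with transcripts called in the level test in purple. Most called transcripts lie to the right of 0 on the level axis and within 10 points of 0 on the share axis (37 of 41 with both shares).

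Gene lists chosen for blood cells and common cell functions held few alternative ends that passed the level test. Of 7 alternative ends of cytosolic ribosomal proteins, 0 were called by edgeR in any of the 3 infestation comparisons (unadjusted p under 0.05 for 1, in lymph gland), and their median log2 change was -0.55 for blood at 120 h, -0.41 for blood at 96 h and -0.33 for lymph gland. Of 13 of nuclear-encoded mitochondrial proteins, 1 was called (UQCR-Q AltEnd-2 in blood at 120 h, the group through which it met the rule, so the call is not read), with a median of 0.03 there. Of 7 of actin, tubulin and adhesion genes, 1 was called in each blood comparison (cib), with medians of 0.53 at 120 h and 0.46 at 96 h. By edgeR, 0 were called of 7 of translation factors, 6 of the vacuolar proton ATPase, 4 of the proteasome, 2 of chaperones and 3 of RNA binding genes. At 120 h these lists had 1, 1, 0, 1 and 0 with an unadjusted p under 0.05. Over all transcripts in the edgeR level test 18.1% were under 0.05 unadjusted in blood at 120 h. The same percentage was 11.1 in blood at 96 h and 10.1 in lymph gland. The immune and hemocyte list held 5 alternative ends, of mys, fok, crq and PGRP-LA (2), and 0 were called by edgeR (1 with an unadjusted p under 0.05 in blood at 120 h, 0 at 96 h and 1 in lymph gland). Among blood cell markers the alternative ends were those of mys (beta integrin) in the lamellocyte list at 5.26% of its gene, fok in the crystal cell list at 1.17% and the scavenger receptor crq in the plasmatocyte list at 33.0%. The muscle list held Mlc2 and wupA, the lists of prohemocyte, midgut, fat body, male germline and matrix genes held 0, and 55 alternative ends in all stood in a list.

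Nanopore and Illumina gave different shares. Over the groups with both, 562 alternative ends in genes with at least 200 nanopore counts had a Pearson r of 0.303 and a Spearman rho of 0.324 between the mean shares. These are correlations across transcripts of the same libraries, and transcripts are not independent replicates. The shares were within 10 points of each other for 159 (28.3%) and within 20 for 264, while 43 were over 50 points higher in nanopore and 31 over 50 points lower. In each group alone r lay between 0.216 and 0.335. For 1367 annotated transcripts of the same genes r was 0.484.

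The difference ran with length. The 96 ends longer than every annotated transcript had a median share of 71.3% in nanopore and 15.1% in Illumina, and 89 of them were higher in nanopore. The 326 shorter ones had medians of 23.9% in nanopore and 45.5% in Illumina, and 238 were lower in nanopore. The 140 within the annotated range had medians of 26.2% and 23.5%, with 74 higher and 65 lower. In the simplest genes, with 1 annotated and 1 alternative transcript, 54 longer ends had medians of 75.9% in nanopore and 10.4% in Illumina and 88 shorter ones 43.0% and 74.9%, and 16 of the 142 were within 10 points. Illumina percentages are scaled for transcript length by the authors' tool and nanopore counts are not, and with Illumina expected counts in their place the medians were 17.1% for longer, 38.3% for shorter and 22.9% for the rest, with r at 0.358.

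**Figure D5:**
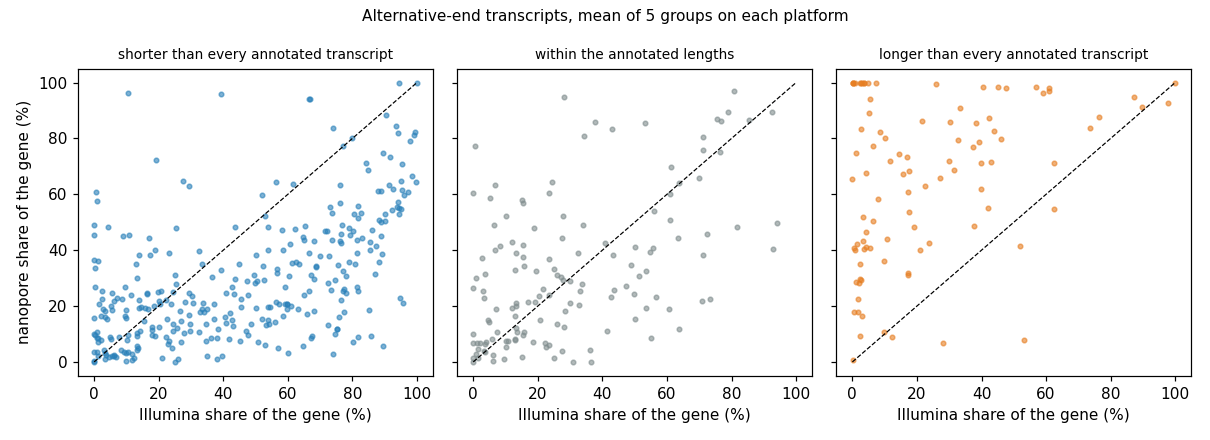
Share of the gene in nanopore (y axis, percent of transcript counts, mean over 5 groups) against the share in Illumina (x axis, percent of the gene, mean over 5 libraries) for 562 alternative-end transcripts, in 3 panels by length against the annotated transcripts, with a dashed line of equal shares. Longer ends lie mostly above the line (89 of 96 higher in nanopore) and shorter ends mostly below it (238 of 326 lower in nanopore).

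The transcripts furthest apart show both directions. ND-B22 AltEnd-1 (a complex I subunit; 564 nucleotides against 687 and 787) averaged 5.85% in nanopore and 89.4% in Illumina, and it was listed at 0 in 10 of 17 nanopore libraries. Miox AltEnd-2 averaged 9.43% and 85.8%, mthl2 21.3% and 95.6%, and the general transcription factor gene TfIIB AltEnd-2 7.30% and 80.1%. In the other direction Gapdh1, Rpn7, CG34330 and CG8860 stood at 100% of the nanopore transcript counts and at 0.04, 0.14, 0.22 and 0.86% in Illumina. Others were close on both platforms: cib averaged 89.5% in nanopore and 92.7% in Illumina, and Cam AltEnd-1 42.4% and 40.8%. The Illumina share of sta was 99.2%, beside 81.4% in nanopore.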

How the data were processed

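For 17 nanopore libraries the authors deposited whole-number counts of reads per gene and, per transcript, estimated counts that are often not whole numbers. For 5 Illumina libraries they deposited expected counts and each transcript's percent of its gene, per the file headers. Per the submitters' processing notes, which give no roles, the tools included minimap2 2.17-r941, RSEM 1.3.1, StringTie 2.1.3, STAR 2.5.3a and FastQC 0.11.8. Not given in the sources used here are the nanopore counting tool, its use of strand and the genome build. Lines for ambiguous reads (22.3 to 27.8% of reads in the transcript tables) and reads without a feature (0.34 to 0.71%) stayed out of all sums. Coordinates are from the BDGP6.54 annotation. In it 34477 of 34752 annotated transcript names were found, 34371 of them at the same length.

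A share was computed in libraries with at least 10 transcript counts of the gene. Estimated counts were rounded to whole numbers, and transcripts with at least 10 counts over the 16 SQK-PCB109 libraries (13965) entered 1 edgeR 4.0.16 fit in R 4.3.3 with TMM scaling, 6 groups, 10 residual degrees of freedom and a common dispersion of 0.159. Shares were tested with diffSpliceDGE and levels with the quasi-likelihood F test, with Benjamini-Hochberg adjusted p-values over all transcripts tested. Standard errors are the log2 change divided by the square root of F. The fits were checked on simulated counts. Alternatives were other filters and scalings (filterByExpr, no filter, RLE), counts not rounded, only the groups compared, a replicate block, limma 3.58.1 (voom with diffSplice, logit shares), DESeq2 1.42.0 for levels, other denominators and leaving out each library. The transcripts and gene lists were chosen with earlier results of these data known. Named transcripts were those past the share test, the 10 most counted, the 6 with the largest shares, the 4 furthest apart between platforms in each direction, those at the threshold and those in a gene list; others were named after their values were seen. Correlations of same-numbered libraries' deviations lay between -0.07 and 0.145 in the groups compared, and replicate numbers were not taken to pair them. In infested blood of 96 h against 120 h they were 0.067 to 0.145, beside -0.09 to 0.029 for libraries of different numbers. Whether libraries of the same number share a cohort was not tested. Depth limits the precision: a share of a gene with few counts carries a wide counting error, and intervals were not computed because the counts are estimates.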

Additional observations from a re-analysis of the deposited data

Results flagged for a closer look

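Of the 679 alternative-end models, 11 had no nanopore count in any of the 17 libraries, and 6 of these had more than 3 expected counts in every one of the 5 Illumina libraries, a signal outside the nanopore measurement. The lowest expected count over the 5 libraries was 1603.16 for eEF1gamma AltEnd-2 (a translation elongation factor subunit; highest 4387.29), 453.06 for Akt AltEnd-1 (a kinase of insulin signalling), 320.32 for Galt AltEnd-1 (galactose metabolism), 71.68 for CG32856 AltEnd-1, 19.95 for Krn AltEnd-1 (an EGF receptor ligand) and 7.22 for CG7882 AltEnd-1. Akt AltEnd-1 had 554.28 expected counts in infested and 453.06 in normal blood at 96 h, and 678.57 in infested and 613.61 in normal blood at 120 h, 1 library each.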

How the results depend on the processing

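The counts of alternative ends with a changed share were 0 in lymph gland, 1 in blood at 96 h, 2 in blood at 120 h, 0 and 1 between ages in normal and infested blood and 0 in the other contrasts. With filterByExpr the count was 3 between ages in infested blood, 1 between tissues in normal larvae, and 17 for levels in lymph gland. With only the groups compared it was 2 in blood at 96 h, 1 in blood at 120 h, 4 between ages in infested blood, and 4 for levels in lymph gland. With the replicate block, which gives paired fits, it was 5 in blood at 120 h, 3 between ages in infested blood, 1 for the difference between ages, and 19 and 15 for levels in lymph gland and blood at 96 h; since replicate numbers were not shown to pair libraries, a call lost there is not read as weaker. Voom gave 1, 3 and 4 for infestation in lymph gland, blood at 96 h and blood at 120 h, 3 and 4 between ages in normal and infested blood, 4 between tissues in normal larvae and 1 for the difference between tissues. The logit fit gave 2 in lymph gland, 0 in blood at 96 h, 2 in blood at 120 h (neither of them KdelR nor ND-ACP), 1 and 2 between ages in normal and infested blood, 2 and 1 between tissues in normal and infested larvae, and 2 and 1 for the 2 differences. With zeros treated as missing, chosen after seeing the data, it gave 0 in blood at 96 h, 0 at 120 h and 0 between ages in infested blood, and 1 in lymph gland: Mob2, at 45.7 to 55.6% in infested and 72.8 to 83.0% in normal libraries (log2 odds change -1.86, adjusted p = 0.04046). DESeq2 gave 21 and 19 for levels in lymph gland and blood at 96 h. With zeros as missing in lymph gland, 1 of 465 alternative ends tested was called, beside 6 of 5612 transcripts in all. For the other settings, and for leaving out 1 library, no share over all transcripts stands beside the counts. No result on alternative ends is read from those counts. Leaving out 1 library gave share counts of 0 to 1 in lymph gland, 0 to 1 in blood at 96 h, 1 to 5 in blood at 120 h, 0 to 1 and 0 to 3 between ages in normal and infested blood, 0 to 2 between tissues in normal larvae and 0 to 2 for the difference between tissues. For levels it gave 6 to 10 in lymph gland, 3 to 10 in blood at 96 h (3 without normal replicate 2) and 25 to 47 in blood at 120 h (25 without normal replicate 2). The median pooled share was 24.98% with gene-table denominators, against 35.4%, and the median Illumina share was 29.0% by expected counts, against 31.9%. Direction was followed only for the share calls and for the few level calls with the lowest adjusted p in each comparison. None of these turned its direction under these settings, and the other level calls were not followed. The cause of the changes was not tested. The 2 normal libraries of blood per age, low gene counts and listed zeros limit the precision of the shares.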

Other observations

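The alternative end of CG34330, longer than both annotated transcripts, was counted in 4 libraries. It had 213, 234 and 195 CPM in infested blood at 120 h and 22.3 CPM in 1 infested library of blood at 96 h, and 0 in all others, where the gene tables also held no read of the gene. Set against an assumed 3 counts over the 2 normal libraries, the mean in infested blood at 120 h was 155-fold higher. This ratio depends on that assumption and is not a firm lower bound. In Illumina the same transcript had 0.507 CPM in infested and 0.11 CPM in normal blood at 120 h. The gene-table level of CG34330 averaged 538.9 CPM in infested blood at 120 h, beside 214.1 CPM for the transcript, each scaled to its own total.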
